A study of Cricetulus griseus with 24 samples.

Results

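A set of 10 genes that a phagocyte uses to recognise and swallow dying cells was followed through 24 RNA-seq libraries of LR73, a hamster cell line that engulfs apoptotic corpses. The set was chosen by name, with earlier results of these data known. It consists of Axl, Tyro3, Mertk, Megf10, Cd36, Itgb5, Lrp1, Gulp1, Elmo2 and Dock1. Of these, 9 were found among the 26776 gene names of the count tables, and all 9 passed the low-count filter in both experiments. Dock1 was not analysed here.

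The first experiment held 16 libraries in 4 groups of 4: LR73 cells left alone (control), LR73 cells given cytochalasin D, LR73 cells given apoptotic cells, and LR73 cells given both. Cytochalasin D caps growing actin filaments and blocks the actin-driven closure of the phagocytic cup. The second experiment held 4 libraries of wildtype LR73 cells and 4 of Slc12a2-deficient LR73 cells, where Slc12a2 encodes a cotransporter of sodium, potassium and chloride. Both of those groups had been fed apoptotic cells for 2 h and sorted for CypHer5E, a dye that lights up when a corpse reaches an acid compartment, and neither had a counterpart without corpses. The corpses were Jurkat cells, a human T cell line, irradiated with ultraviolet C at 1500 mJ and held for 4 h. The groups have limits as models. All phagocytes belong to 1 cell line, and the sources used here do not say how Slc12a2 was removed or from how many clones the deficient cells came. A genotype difference present before feeding and one that arises on feeding cannot be told apart.

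Engulfment of a dying cell starts when phosphatidylserine, a lipid that living cells keep on the inner leaflet, appears on the outer surface. Soluble bridging proteins or the receptors themselves bind it, and the receptors pass the signal along adaptor chains to the small GTPase Rac, which drives actin around the corpse. Axl, Tyro3 and Mertk form the TAM family of receptor tyrosine kinases, whose bridging ligands are Gas6 and protein S (Pros1). Itgb5 encodes the beta subunit that pairs with integrin alpha v and binds corpses coated with Mfge8. Cd36 is a scavenger receptor that works with thrombospondin, Megf10 is a receptor with many EGF-like repeats, and Lrp1 is a large receptor that answers calreticulin on the corpse. Gulp1 is an adaptor that binds the tails of Lrp1 and Megf10, while Elmo2 and Dock1 belong to the families whose complex activates Rac.

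The first experiment had 8272232 to 18911353 counted fragments per library, and the second 22758587 to 28450594. Levels below are CPM, fragments scaled to library size with TMM factors, and a gene was called changed when its edgeR adjusted p, corrected over all genes tested, was under 0.05. Slc12a2 stood at 93.4, 91.2, 99.4 and 103 CPM in wildtype libraries 9, 10, 13 and 14 and at 25.3, 22.4, 24.7 and 26.1 CPM in deficient libraries 11, 12, 15 and 16 (log2 -1.97, SE 0.06, edgeR adjusted p = 1.14e-12), so transcript remained in the deficient cells. The labels name the cells fibroblasts. Vim (4331 CPM), Fn1 (1027 CPM) and Pdgfra (49.1 CPM) were high in control libraries, while the collagen genes Col1a1 and Col1a2 were near 0 at 0.0455 and 0.137 CPM. Of 14 macrophage markers 10 had a row, and these summed to between 1.26 and 4.02 CPM over all libraries. T cell markers of the corpses summed to between 45.9 and 52.5 CPM in control and between 51.4 and 57.4 CPM with apoptotic cells, and Lck went from a mean of 0.0259 to 3.20 CPM. Of 20 listed T cell genes, 18 had a row, and 11 of these were at 0 in control against 5 with apoptotic cells. In the second experiment the T cell markers summed to between 53.6 and 59.2 CPM in wildtype cells and between 50.5 and 54.5 CPM in deficient cells. In each of those groups 9 of the 18 genes were at 0. Of single genes, Lck was at 0.0585 CPM in wildtype cells and Zap70 and Cd3e were at 0. The part of corpse RNA in the results on the engulfment genes was not tested.

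The receptors differed widely in how much transcript they contributed. Per kilobase of exon, Axl led at 510.1 ± 10.8 CPM in control libraries (SD, n = 4), followed by Itgb5 at 194 ± 5.60. Elmo2 (26.9 ± 0.807), Tyro3 (21.6 ± 1.84), Gulp1 (19 ± 2.33) and Lrp1 (14.9 ± 2.80) formed a middle tier. Among these 4, the libraries of Tyro3 overlapped those of Gulp1, and those of Gulp1 overlapped those of Lrp1, so that order is not resolved. Cd36 (2.21 ± 0.180), Mertk (1.45 ± 0.337) and Megf10 (0.253 ± 0.0584 CPM per kilobase) closed the list, and their libraries did not overlap one another. Axl made up 95.7% ± 0.270 of the summed TAM level per kilobase in control, Tyro3 4.04% ± 0.284 and Mertk 0.271% ± 0.0590. In wildtype cells of the second experiment the Axl share was 97.2% ± 0.195. Megf10 rested on 9 to 30 fragments per library in the first experiment, and its changes there are poorly resolved.

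**Figure D1:**
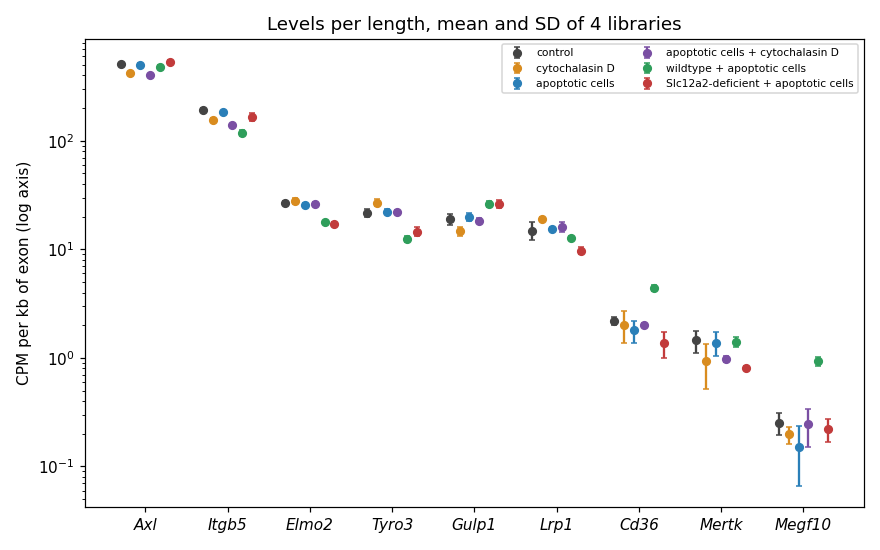
Mean level per kilobase of exon (vertical log axis, CPM per kb) of the 9 engulfment genes in each of the 6 groups, with SD over 4 libraries as bars. Axl and Itgb5 sit far above the rest in every group, and Cd36, Mertk and Megf10 sit at the bottom.

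The partners of these receptors were unevenly present. Gas6, the ligand that Axl prefers, was nearly silent, with at most 3 fragments in any library, 8 over the first experiment and 2 over the second. The other TAM ligand, Pros1, stood at 38.8 ± 1.13 CPM in control, and Mfge8, which bridges corpses to the alpha v integrins, at 474 ± 17.4 CPM. Itgav, the alpha v subunit, was at 82.5 ± 4.31 CPM, while Itgb3, the other beta subunit classed with Mfge8 binding, never exceeded 9 fragments in a library. Per kilobase, Elmo2 made up 72.7% ± 0.652 of the 3 Elmo genes in control, against 23.1% ± 0.868 for Elmo1 and 4.19% ± 0.250 for Elmo3. Dock2, Rac2 and Vav1 are typical of blood cells. In the first experiment all 81 fragments of Dock2, all 21 of Rac2 and 36 of the 37 of Vav1 came from libraries with corpses, and in the second these genes had none. The complement genes C1qa, C1qb and C1qc and the receptors Timd4, Havcr2, Cd300lf, Cd300lb and Cd93 had no fragment in any of the 24 libraries.

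The comparison of fed with unfed cells asks whether meeting corpses alters the engulfment genes. None of the 9 was called changed, against 13.7% of the 13106 genes tested. The count was also 0 with DESeq2 and with limma-voom, and 1 gene had an unadjusted p under 0.05 in edgeR. That gene was Itgb5, at 533, 527, 565 and 546 CPM with apoptotic cells and 553, 589.7, 579 and 585 CPM in control, a shift of -0.09 on the log2 scale (SE 0.04, edgeR adjusted p = 0.103) with overlapping libraries. The median absolute log2 change of the 9 genes was 0.06, and that of all genes tested was 0.12.

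Several of these estimates were tight. The change of Axl was -0.03 on the log2 scale, with a 95% interval from -0.09 to 0.04, and that of Tyro3 was 0.04, with an interval from -0.09 to 0.18. Elmo2, the Rac-activating scaffold, moved by -0.06 (interval -0.15 to 0.04), Gulp1 by 0.05 (-0.13 to 0.24) and Lrp1 by 0.04 (-0.14 to 0.23). For the scarce receptors the intervals were wide. They ran from -1.48 to 0.04 for Megf10, from -0.70 to 0.08 for Cd36 and from -0.53 to 0.41 for Mertk. A drop as large as each lower bound thus lies within the error. Longer genes tended to lower fold changes in this comparison (Spearman's rho -0.26 over genes, which are not independent), and Lrp1, with 14585 exonic bases, is longer than all but 30 of the genes tested. With each library's length trend removed, its change was 0.17 and still not called.

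**Figure D2:**
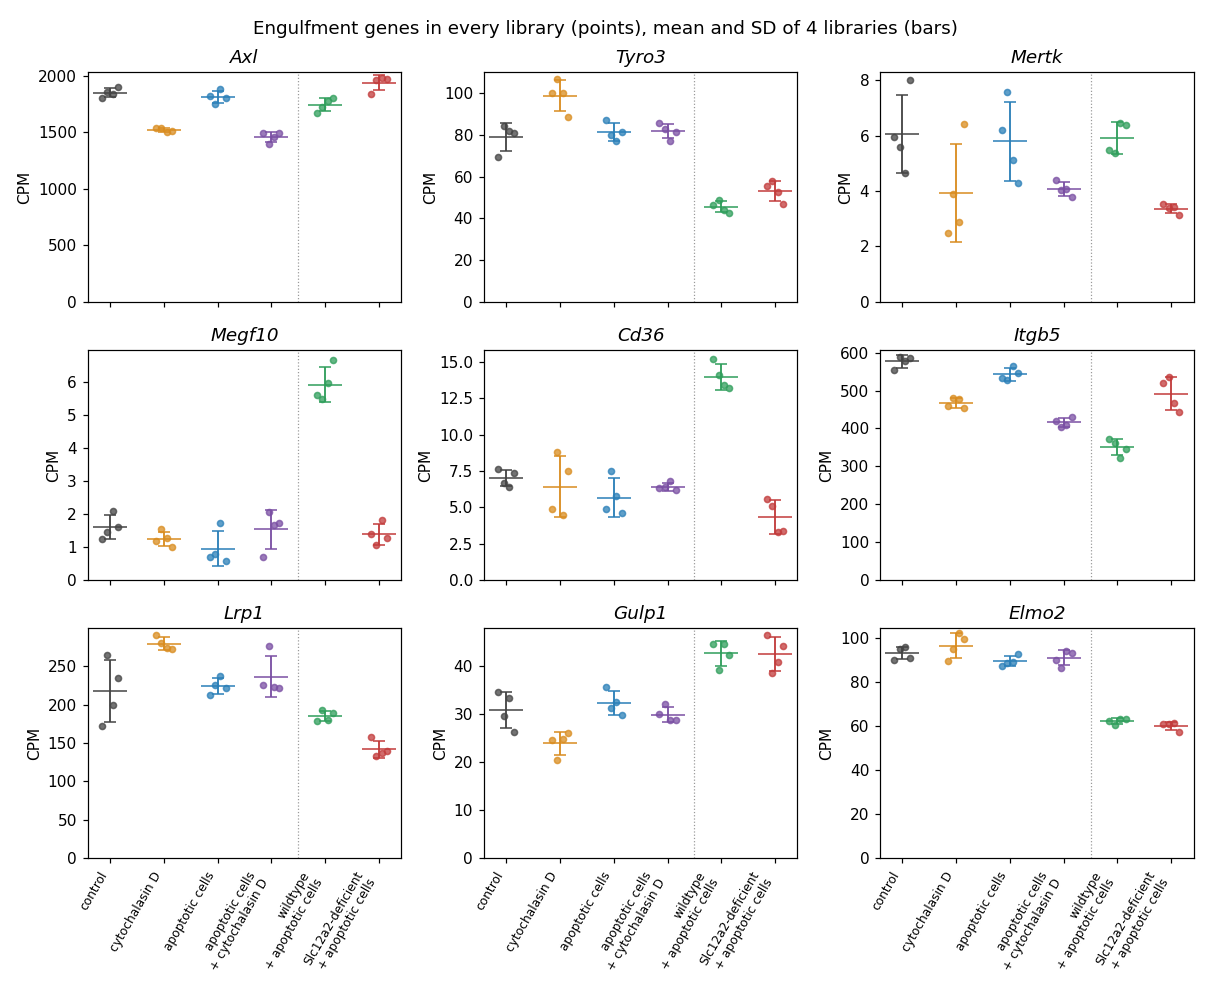
Level of each engulfment gene (vertical axis, CPM from 0) in every library (points) of the 6 groups, with the mean and SD of 4 libraries as bars, and a dotted line between the separately counted experiments. Axl and Itgb5 drop in both groups given cytochalasin D, and Megf10 and Cd36 drop in the Slc12a2-deficient group.

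Cytochalasin D by itself changed 5 of the 9 genes, 2 upward and 3 downward, against 26.3% of all genes tested. Among the TAM receptors, Axl and Tyro3 moved in opposite directions. Axl was at 1539, 1543, 1505 and 1513 CPM with the drug and at 1804, 1859.5, 1841 and 1898 CPM in control. Every treated library lay below every control library, and the level fell by 0.28 on the log2 scale (SE 0.03, edgeR adjusted p = 1.80e-07). Tyro3 was at 99.9, 107, 100 and 88.6 CPM with the drug and at 69.2, 84.3, 81.8 and 81.0 CPM in control. The groups did not overlap, and Tyro3 was 1.25-fold higher (log2 0.33, SE 0.06, edgeR adjusted p = 0.000464). Tyro3 accordingly made up 6.02% ± 0.410 of the summed TAM level per kilobase under the drug. Mertk ran lower, at 2.48, 3.89, 2.90 and 6.41 CPM against 5.96, 5.58, 4.67 and 8.01 CPM, but treated library 4 lay inside the control range. Its log2 change of -0.59 (SE 0.24) was not called (edgeR adjusted p = 0.0706). Without treated library 4 it was -0.96 and called (edgeR adjusted p = 0.00225), and it was also called with DESeq2 (adjusted p = 0.0483) and in edgeR without a low-count filter (adjusted p = 0.0446).

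Of the other receptors, the integrin subunit fell and the large scavenger receptor rose. Itgb5 was at 459, 481, 477 and 453 CPM under cytochalasin D, each below the lowest control library at 553 CPM, and was 1.23-fold lower (log2 -0.30, SE 0.04, edgeR adjusted p = 4.84e-07). Lrp1 was at 291, 280.0, 274 and 272 CPM under the drug and at 172, 265, 199 and 235 CPM in control, where the libraries spread widely. The groups did not overlap, and Lrp1 was 1.28-fold higher (log2 0.36, SE 0.09, edgeR adjusted p = 0.00370). With the length trend removed the change was 0.31. Cd36 (log2 -0.13, SE 0.19) and Megf10 (log2 -0.35, SE 0.36) were not called.

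The adaptor Gulp1 fell, from 34.5, 29.5, 33.2 and 26.2 CPM in control to 24.5, 20.4, 24.7 and 25.9 CPM. The highest treated library was just under the lowest control library, and the change was 1.29-fold (log2 -0.37, SE 0.09, edgeR adjusted p = 0.00328). Elmo2 was at 89.5, 94.8, 102 and 99.4 CPM with the drug and at 90.1, 94.8, 95.7 and 91.0 CPM without it. The ranges overlapped, and the interval of its log2 change ran from -0.04 to 0.16.

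When corpses were present as well, cytochalasin D changed 2 of the 9 genes, both downward, against 32.5% of all genes tested. Axl fell to 1496, 1397, 1456 and 1494 CPM, all below the 1751 to 1884 CPM of libraries with apoptotic cells alone (log2 -0.31, SE 0.03, edgeR adjusted p = 2.43e-08). Itgb5 fell to 420.2, 404, 408 and 431 CPM, its lowest level in the first experiment (log2 -0.38, SE 0.04, edgeR adjusted p = 1.01e-08). Tyro3 (log2 0.01, SE 0.06), Lrp1 (0.07, SE 0.09) and Gulp1 (-0.11, SE 0.09) were not called here. Mertk was at -0.49 (SE 0.24, edgeR adjusted p = 0.127), and was called at -0.50 in the 8 compared libraries alone (edgeR adjusted p = 0.0492). Megf10 was at 0.61 (SE 0.38) and was called without apoptotic cell library 3 alone (log2 1.11, edgeR adjusted p = 0.0404).

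The effect of corpses on cells given cytochalasin D was compared within the drug-treated groups. It shares its baseline libraries with the comparison of cytochalasin D with control. Here 3 of the 9 genes were called, against 8.61% of all genes tested. Tyro3 was at 85.6, 82.9, 77.3 and 81.6 CPM with corpses, each below the 88.6 CPM of the lowest library with the drug alone (log2 -0.27, SE 0.06, edgeR adjusted p = 0.00866). Its mean of 81.8 ± 3.44 CPM lay near the 79.1 ± 6.75 CPM of control. Gulp1 was at 29.9, 32.0, 28.8 and 28.6 CPM, above every library with the drug alone, and rose 1.24-fold (log2 0.31, SE 0.09, edgeR adjusted p = 0.0335). That call was lost in 7 of 18 alternatives, all of them with 1 library left out: cytochalasin D library 1, 2 or 3, or any of the 4 libraries with both (edgeR adjusted p up to 0.131 across the alternatives). Itgb5 fell further, by 0.17 on the log2 scale (SE 0.04, edgeR adjusted p = 0.00328), with no overlap between the groups.

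Lrp1 was at 225, 276, 223 and 221 CPM with the drug and corpses. Library 2, the smallest of the experiment, stood apart from its group and inside the range of the drug alone, and the log2 change of -0.25 (SE 0.09) was not called (edgeR adjusted p = 0.0916). Without that library the change was -0.32 (edgeR adjusted p = 0.0260), with the length trend removed it was -0.24 (edgeR adjusted p = 0.0329), and in the 8 compared libraries alone it was also -0.24 (edgeR adjusted p = 0.0305). Without a low-count filter it was -0.25 (edgeR adjusted p = 0.00938). Axl was at -0.06 on the log2 scale (SE 0.03, edgeR adjusted p = 0.236), Elmo2 at -0.09 (SE 0.05), Mertk at 0.04 (SE 0.25) and Megf10 at 0.25 (SE 0.37), none of them called. The uncalled Axl also had no overlap, at 1397 to 1496 CPM with corpses and 1505 to 1543 CPM without. Cd36 had means of 6.43 and 6.42 CPM with and without corpses.

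Whether corpses acted differently with and without the drug was tested directly as the difference between both corpse effects. Only Tyro3 passed among the 9 genes, against 4.56% of all genes tested. Its response to corpses was 0.32 lower on the log2 scale under cytochalasin D (interval -0.50 to -0.13, SE 0.09, edgeR adjusted p = 0.0489). The call stood at the threshold and was lost in 16 of 25 alternatives. It was lost with limma-voom, with relative log expression factors, without the 3 libraries that stand apart on the third principal component, and without any 1 of 13 libraries, which are all 16 except control library 2, cytochalasin D library 4 and library 1 of the group with both. The adjusted p over the alternatives ranged from 0.00842 to 0.170, and the log2 value from -0.37 to -0.25. Lrp1 was at -0.29 (SE 0.13, edgeR adjusted p = 0.184), and was called with the length trend removed (log2 -0.40, edgeR adjusted p = 0.0232) and without control library 2 (log2 -0.40, edgeR adjusted p = 0.0367). Gulp1 was at 0.26 (SE 0.13) and Megf10 at 0.96 (SE 0.52), neither of them called.

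**Figure D3:**
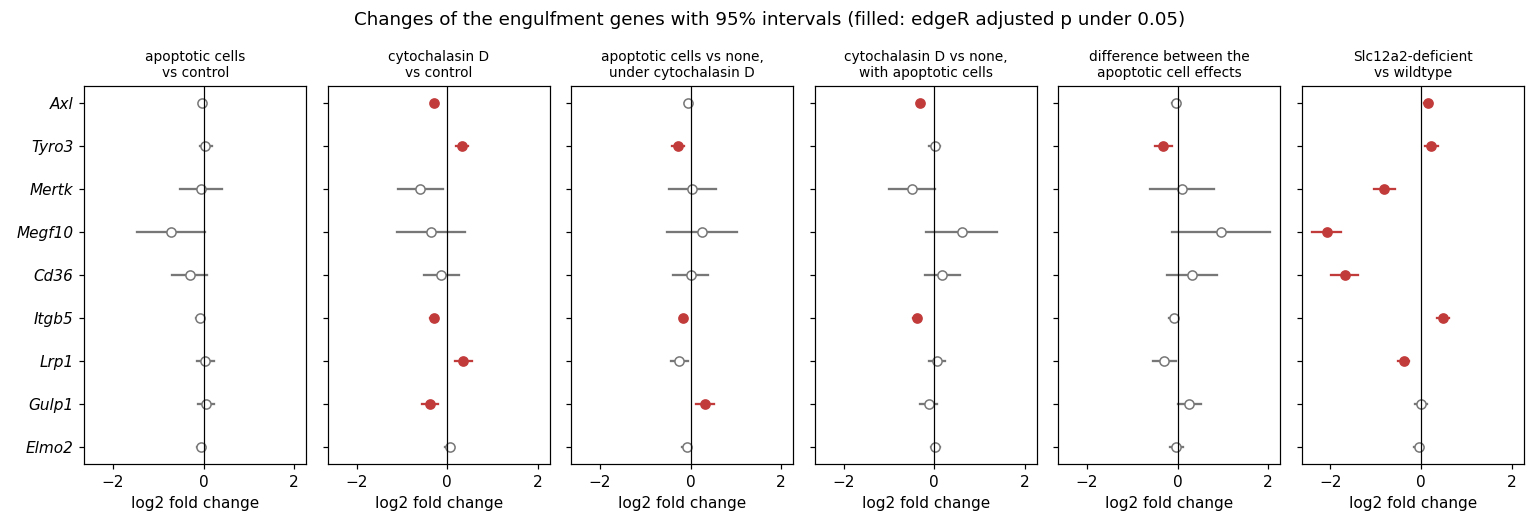
Log2 fold change (horizontal axis) of each engulfment gene in the 6 comparisons, with 95% intervals as lines, filled where the edgeR adjusted p is under 0.05. The first panel has no filled point, and the Megf10 and Cd36 points lie at -2.08 and -1.69 in the last panel.

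The comparison of Slc12a2-deficient with wildtype phagocytes, both fed and sorted, asks how engulfment genes differ between genotypes in cells that have taken up a corpse. Here 7 of the 9 genes were called, 3 higher and 4 lower, against 42.5% of the 13050 genes tested. The median absolute log2 change was 0.38 for the 9 genes and 0.17 for all genes. The receptors of low abundance fell furthest, while Axl, Tyro3 and Itgb5 rose.

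Megf10 was at 5.61, 5.49, 5.97 and 6.67 CPM in wildtype libraries 9, 10, 13 and 14 and at 1.40, 1.06, 1.83 and 1.29 CPM in deficient libraries 11, 12, 15 and 16. The groups were far apart, on 127 to 168 against 29 to 51 fragments, and Megf10 was 4.23-fold lower (log2 -2.08, SE 0.15, edgeR adjusted p = 2.72e-08). Of the genes tested, 1.38% had a larger absolute change. Cd36 was at 15.2, 14.1, 13.4 and 13.2 CPM in wildtype and at 5.57, 5.10, 3.30 and 3.37 CPM in deficient libraries. Again the groups did not overlap, and the scavenger receptor was 3.22-fold lower (log2 -1.69, SE 0.14, edgeR adjusted p = 8.74e-08). Deficient libraries 11 and 12 were both above 15 and 16, as wildtype libraries 9 and 10 were above 13 and 14.

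Lrp1, whose tail binds Gulp1 as that of Megf10 does, was at 179, 193, 179.6 and 189 CPM in wildtype and at 158, 133, 137 and 139 CPM in deficient libraries. All deficient libraries were lower, by 1.30-fold (log2 -0.38, SE 0.05, edgeR adjusted p = 4.00e-05). The adaptor itself was at 44.5, 39.0, 44.4 and 42.1 CPM against 46.4, 38.5, 40.8 and 44.1 CPM. Both groups had a mean of 42.5 CPM, and the interval of the log2 change of Gulp1 ran from -0.14 to 0.13.

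The TAM receptors did not move together. Mertk was at 5.49, 5.36, 6.46 and 6.39 CPM in wildtype and at 3.53, 3.39, 3.41 and 3.15 CPM in deficient libraries, a 1.76-fold drop with no overlap (log2 -0.81, SE 0.11, edgeR adjusted p = 2.18e-05). Axl was at 1673, 1724, 1781 and 1802 CPM in wildtype and at 1841, 1963, 1978 and 1977 CPM in deficient libraries. The lowest deficient library was just above the highest wildtype one, and the rise was 1.11-fold (log2 0.15, SE 0.04, edgeR adjusted p = 0.00921). Tyro3 was at 46.6, 48.8, 44.0 and 42.8 CPM in wildtype and at 55.6, 58.0, 52.8 and 46.9 CPM in deficient libraries. Deficient library 16 lay inside the wildtype range, and the rise was 1.17-fold (log2 0.23, SE 0.07, edgeR adjusted p = 0.0109). Since Axl dominates the family, its share of the summed TAM level per kilobase was 97.2% in both genotypes, while that of Mertk went from 0.285% ± 0.0207 to 0.146% ± 0.0108.

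Itgb5 was at 372, 361, 323 and 346 CPM in wildtype and at 520.1, 535, 468 and 443 CPM in deficient libraries. The integrin subunit was 1.40-fold higher with no overlap (log2 0.49, SE 0.06, edgeR adjusted p = 1.20e-05). Its partner subunit Itgav was not called (log2 0.07, SE 0.05, edgeR adjusted p = 0.253), and Itgb1, a beta subunit that also pairs with alpha v, was 1.2-fold lower (log2 -0.26, SE 0.05, edgeR adjusted p = 0.000552). Elmo2 was at 62.2, 60.4, 63.3 and 63.1 CPM in wildtype and at 60.8, 60.7, 61.2 and 57.2 CPM in deficient libraries, which overlapped, and its change was -0.05 (interval -0.15 to 0.04). Elmo2 was the only one of the 9 genes that was called in none of the 6 comparisons.

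Libraries 9 to 12 and 13 to 16 separated on the second principal component, and each range held 2 libraries per genotype. The labels do not say what the numbers stand for. Within each range the 7 called genes kept their direction and their genotypes did not overlap, Tyro3 included. The 7 were called in these same libraries, so this describes them and is no separate support. Elmo2, which was not called, also had no overlap in libraries 13 to 16 (log2 -0.09). The share of all genes tested without overlap at 2 libraries per genotype was not computed. The change of Cd36 was -1.46 in libraries 9 to 12 and -1.99 in 13 to 16, that of Mertk was -0.65 and -0.97, that of Megf10 -2.17 and -2.02, and that of Itgb5 0.53 and 0.44 on the log2 scale. With the range as a term in the edgeR fit, an alternative chosen after the data were seen, all 7 were called, and the adjusted p of Tyro3 was 0.000868.

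The second experiment was counted in a separate table, so levels across the experiments were set side by side without a test. Fed wildtype cells of the second experiment had 5.93 ± 0.533 CPM of Megf10, against 0.951 ± 0.534 CPM in the fed cells of the first. Cd36 was at 14.0 ± 0.924 against 5.68 ± 1.31 CPM. The Slc12a2-deficient means of 1.39 CPM for Megf10 and 4.34 CPM for Cd36 were nearer the first experiment's fed cells than the wildtype cells of the second were. Tyro3 went the other way, at 45.5 ± 2.71 against 81.4 ± 4.25 CPM, as did Itgb5 at 351 ± 21 against 543 ± 16.8 CPM and Elmo2 at 62.2 ± 1.33 against 89.3 ± 2.36 CPM. The sources used here do not give the time with corpses in the first experiment. Sorting, time with corpses, sequencing depth and the experiment cannot be told apart in these values.

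The wider engulfment pathway was read from 5 lists with 140 genes in all, of which 131 had a row, 104 were tested in the first experiment and 102 in the second. With apoptotic cells, 7 of the 104 (all lists together) rose and 12 fell, where 6.97% of all genes tested rose and 6.68% fell. Thbs1, the thrombospondin that Cd36 binds, rose 1.27-fold from 286 ± 15.2 to 363 ± 5.44 CPM (edgeR adjusted p = 5.24e-05). Socs3, a feedback inhibitor of cytokine signalling, rose 1.54-fold (edgeR adjusted p = 0.00173). Abca1, a lipid exporter linked to uptake of dying cells, fell by 0.39 on the log2 scale (edgeR adjusted p = 8.90e-05), and the Dock family members Dock4 and Dock5 fell by 0.29 and 0.22. Fold changes tended to be lower in longer genes here (Spearman's rho -0.26), and the part of length in the list results was not tested.

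Cytochalasin D by itself raised 42 of the 104 genes and lowered 5, while over all genes tested 13.5% rose and 12.8% fell. The increases were spread over receptors, signalling and phagosome genes. Myh9, the heavy chain of nonmuscle myosin, reached 1309 ± 47.1 CPM, a 2.42-fold rise (edgeR adjusted p = 1.40e-15), the adaptor Nck2 rose 2.30-fold and the kinase Src 2.05-fold. Among receptors, Sirpa, which reads the don't-eat-me signal Cd47, rose 1.68-fold and the fibronectin receptor subunit Itga5 1.52-fold, while Megf6, a relative of Megf10, was 1.99-fold lower (edgeR adjusted p = 3.68e-06). Of 32 phagosome maturation genes, 15 rose and none fell, with Lamp2, a lysosomal membrane protein, at 1.39-fold and the tethering subunit Vps11 at 1.36-fold. Of the 7 bridging genes tested, 5 rose, among them Anxa1, which was 1.48-fold higher (edgeR adjusted p = 2.15e-11). With corpses present the drug raised 46 and lowered 10 of the 104, where 16.4% of all genes tested rose and 16.1% fell.

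In the corpse response under the drug, 8 of the 104 genes were higher and 8 lower, where 4.82% of all genes tested were higher and 3.79% lower. Thbs1 was at 977 ± 75.0 CPM with corpses and 273 ± 12.4 CPM without, a 3.57-fold rise (log2 1.84, SE 0.05, edgeR adjusted p = 1.43e-17). The response of Thbs1 was 1.5 larger on the log2 scale than without the drug (SE 0.07, edgeR adjusted p = 1.69e-12). Its receptor Cd36 was called in neither setting. In the test of the difference, 5 of the 104 genes were higher and 4 lower, where 3.03% of all genes tested were higher and 1.53% lower.

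In Slc12a2-deficient cells 27 of 102 genes were higher and 25 lower, where 21.1% of all genes tested were higher and 21.3% lower. Of the 7 bridging genes tested, 5 were called, all of them lower, beside that background of 21.3% lower, with a list median of -0.60 on the log2 scale against 0.00 for all genes. Anxa1 and Lgals3 were each 1.79-fold lower (edgeR adjusted p = 7.34e-07 and 3.17e-05), Pros1 was 1.52-fold lower at 38.8 ± 1.64 against 58.9 ± 1.19 CPM (edgeR adjusted p = 7.53e-08), Thbs2 was 1.54-fold lower, and Mfge8 was 1.14-fold lower (edgeR adjusted p = 0.00419). Pros1 and Mfge8 were added to the named genes after their values were seen. In the signalling list 14 of 35 genes rose and 4 fell, beside the same 21.1% and 21.3% of all genes. Bcar1, a scaffold that the adaptor Crk binds, rose 2.14-fold from 105 ± 7.34 to 225 ± 6.79 CPM (edgeR adjusted p = 1.88e-10), whereas the membrane scission GTPase Dnm2 was 1.92-fold lower (edgeR adjusted p = 1.88e-09). Among other receptors, Megf6 was 3.08-fold higher (edgeR adjusted p = 3.31e-07), opposite in direction to Megf10. Nr1h2, a nuclear receptor that senses sterols, was 2.59-fold lower, at 22.8 ± 1.90 against 59.2 ± 2.02 CPM (edgeR adjusted p = 1.07e-10).

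**Figure D4:**
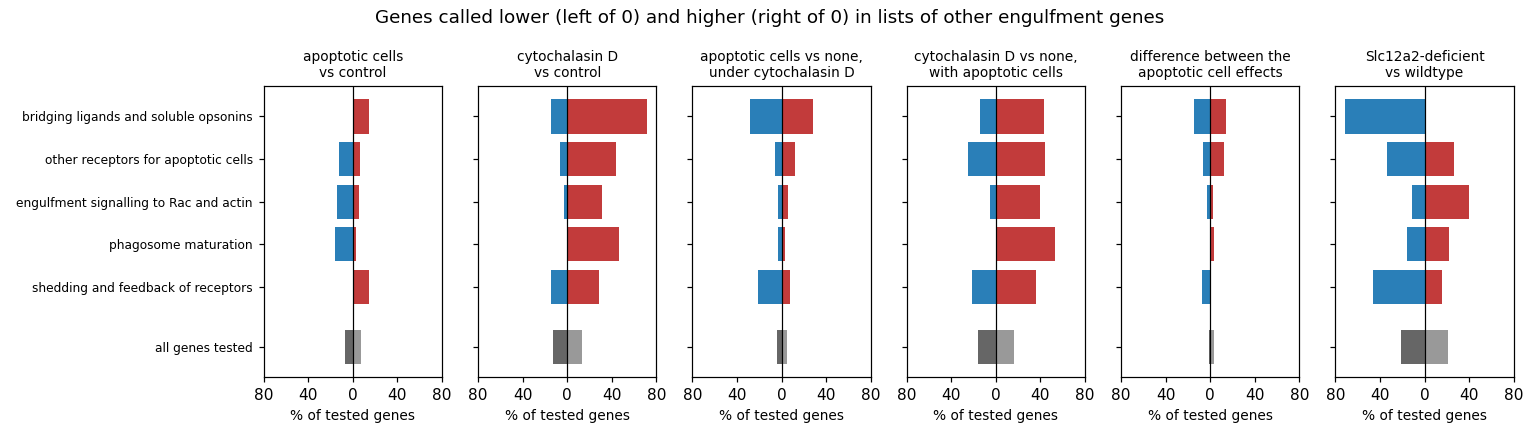
Share of tested genes called lower (left of 0) and higher (right of 0) in 5 lists of other engulfment genes and over all genes tested, for each comparison (horizontal axis, percent). Bridging genes lie to the left in the Slc12a2-deficient comparison, and all lists lean to the right where cytochalasin D is compared with no drug.

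The genes whose log2 CPM ran closest to Gulp1, Lrp1 and Itgb5, the 3 engulfment genes with the largest called changes in the first experiment, were looked for over its 16 libraries among 8921 genes by Pearson's r. These correlations describe libraries that share treatments and depth. Itgb5 ran with Tns1 (r = 0.99), Itgb4 (0.98) and Micall2 (0.97). Gulp1 ran with Hnrnpd (r = 0.89), Srsf6 (0.86) and Wdr43 (0.85). Lrp1 ran with Kmt2d (r = 0.92), Ubr4 (0.89) and Stard3 (0.89). Kmt2d and Ubr4 have 19313 and 15881 exonic bases, both above the 14585 of Lrp1, while Stard3 has 2290.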

How the data were processed

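RNA was measured in 24 libraries, 4 for each of 6 groups taken from the sample titles. The labels report total RNA, TruSeq libraries and 75 bp paired-end reads. The authors deposited raw fragment counts for each gene name, which featureCounts 1.5.0 took from alignments by STAR, per the file headers. Fragments were counted over exons, with both ends aligned and no strand option, per the file headers, so a gene and an antisense partner cannot be told apart. STAR version and genome build: not given in the sources used here, so no coordinates or sequences are printed. FastQC and DESeq2 are also named in the submitters' processing notes. The row without a gene name was dropped before library sizes were taken. It held 0.0249% to 0.0445% of counts in the first experiment and 1.13% to 1.65% in the second.

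Each experiment was fitted by itself in R 4.3.3 with edgeR 4.0.16: TMM factors, filterByExpr (minimum count 10, minimum total 15), glmQLFit on group alone, quasi-likelihood F tests and Benjamini-Hochberg adjustment over all genes tested. SE is the log2 change divided by the root of F, and intervals are at 95%. Biological coefficients of variation were 7.04% and 6.06%. The floor of 3 fragments was 0.156 to 0.368 CPM in the first experiment and 0.108 to 0.133 CPM in the second. Levels per kilobase divide CPM by the exonic length in the tables. The code was tested on simulated counts. Within groups, every pair of libraries differed by more than sampling noise (smallest chi-square 1.90 per degree of freedom). The titles do not say that libraries came from separate cultures, though the series design calls them biological replicates.

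The engulfment genes and the pathway and marker lists were chosen with earlier results of these data known. All engulfment genes were named. From each pathway list, up to 3 genes per direction and comparison could be named, by size of change among called genes whose mean reached 4 CPM and whose groups were disjoint, and the text gives a subset. Neighbours by correlation were the 3 closest genes for each of 3 engulfment genes. Alternatives were DESeq2 1.42.0, limma-voom (limma 3.58.1), relative log expression factors, a robust fit, no filter, a cutoff of 1 CPM in 4 libraries, removal of length trends, a replicate block, the 8 compared libraries alone and each library left out. Removal of 3 libraries and the library number range as a term were chosen after seeing the data. Some items are not reported here.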

Additional observations from a re-analysis of the deposited data

Results flagged for a closer look

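Levels of the engulfment genes were checked for a library far from the other 3 of its group, by Dixon's gap relative to the range at the 95% critical value, in 54 sets of 4 libraries. Chance marks about 1 set in 20, and 3 were marked. Lrp1 was highest at 276 CPM in library 2 of the group with apoptotic cells and cytochalasin D, the other 3 being at 225, 223 and 221 CPM. Axl was lowest at 1841 CPM in Slc12a2-deficient library 11, against 1963 to 1978 CPM in the others, and Elmo2 was lowest at 57.2 CPM in deficient library 16, against 60.7 to 61.2 CPM.

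The response of Tyro3 to apoptotic cells was called different with and without cytochalasin D, by -0.32 on the log2 scale in a test of the difference itself (edgeR adjusted p = 0.0489, and 0.00842 to 0.170 over the alternatives). That call was lost in 16 of 25 alternatives.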

How the results depend on the processing

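Of 1017 recomputed values of the 9 genes under 35 settings, 982 stayed on the same side of the threshold, 23 calls were lost, 12 were gained and none reversed, while 39 values that passed in neither fit changed sign. Of the 18 calls, 16 held under every alternative run. The exceptions were Gulp1 for corpses against none under cytochalasin D and Tyro3 for the difference between corpse effects. For that difference the number of engulfment genes called was 1, and it became 0 with limma-voom, 0 with relative log expression factors, 2 with the length trend removed, 0 without the 3 libraries that stand apart and 0 to 2 with single libraries left out; the cause was not tested. Over all genes the count for that difference was 598, against 975 with DESeq2, 928 without a filter, 120 without the 3 libraries, and 251 (without apoptotic cell library 3) to 1645 (without cytochalasin D library 4) with single libraries left out. For corpses under the drug it was 1129, against 662 without the 3 libraries and 756 to 1639 with 1 left out, and for corpses against control 1789 fell to 1103 without apoptotic cell library 3.

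With the replicate number as a replicate block, the counts of engulfment genes called in the first experiment were 0, 5, 4, 2 and 1 in the order of corpses alone, drug alone, corpses under the drug, drug with corpses, and the difference. The added gene was Lrp1 (edgeR adjusted p = 0.0479). Few libraries with the same number ran together. Of 24 such pairs, 3 had correlated deviations above 0.1 (range -0.06 to 0.23), and 4 of 16 libraries correlated best with their own number. The group with both paired with cytochalasin D alone at 0.21 for number 1 and 0.23 for number 4. With control it paired at 0.19 for number 4. The groups of the second experiment share no numbers. In the first experiment Megf10 rested on 9 to 30 fragments per library, Mertk on 31 to 115 and Cd36 on 52 to 147. The parts of depth and of spread between libraries in their wide intervals were not tested.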

Other observations

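Slc12a2 itself was lower under cytochalasin D in cells of the first experiment, at 22.9, 33.9, 31.0 and 36.2 CPM against 53.0, 48.8, 44.9 and 52.2 CPM in control (log2 -0.68, SE 0.10, edgeR adjusted p = 1.53e-05). With apoptotic cells alone it was at 45.5, 51.9, 43.7 and 48.4 CPM and was not called (log2 -0.07, SE 0.10, edgeR adjusted p = 0.686). With both it was at 36.1, 41.9, 37.2 and 42.4 CPM. That was higher than with the drug alone (log2 0.33, SE 0.10, edgeR adjusted p = 0.0450), although the libraries of those groups overlapped, and lower than with apoptotic cells alone (log2 -0.27, SE 0.10, edgeR adjusted p = 0.0386). The difference between its corpse effects with and without the drug was not called (log2 0.40, SE 0.14, edgeR adjusted p = 0.0980). The alternatives were run for the engulfment genes, so the calls of Slc12a2 were not recomputed.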
